A study of Mus musculus with 9 samples.

Results

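The 6 lungs that had received bacterial lipopolysaccharide (LPS), with or without inhaled PD, were taken as 1 group and set against the 3 control lungs, to describe the endotoxin response that both exposed groups share. Membership came from the treatment labels alone and used no measured value: 9 of the 9 libraries of the series entered the comparison, and 16227 of the 32114 genes in the expression table reached the required mean of 0.5 FPKM over them. Control mice received sterile saline (0.9% NaCl). LPS mice received 50 µg per mouse, and LPS plus PD mice received the same LPS and an aerosol of PD at 10 mg/mL in an inhalation box. PD is read as the ginseng sapogenin panaxadiol that the series title names. All mice were 12 weeks old and carry no genetic modification in the labels. The design text gives 6 animals per group and the table holds 3 libraries per group. The sources used here do not give the strain, which animals gave the libraries, whether tissue was pooled, or the route and time of LPS. P-values therefore measure only the spread between these samples, part of which may be technical.

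LPS is the outer-membrane glycolipid of Gram-negative bacteria. It is carried by LPS-binding protein and CD14 to the receptor complex of TLR4 and MD-2, which starts NF-kB signalling and, through a separate adaptor, interferon production. In the lung, alveolar macrophages and epithelial cells then release chemokines that draw neutrophils from the blood, followed by monocytes, while epithelium and liver make acute-phase proteins that bind iron, lipids and proteases.

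FPKM counts sequenced fragments relative to the length of the transcript and the size of the library, so levels of different genes can be compared. The depth at which the deposited values became whole reads was 15.23 to 19.19 M reads per library. LPS replicate 2 stood apart, correlating at no more than 0.914 with any other lung, where each of the other 8 reached 0.971 or more with at least 1 lung. For several results that rest on it the value without it is also given. Every library held Y-linked transcripts (Ddx3y at 15.4 to 31.9 FPKM) and almost no Xist (0.018 to 0.089 FPKM), which goes against the label female in all 9 lungs alike. The label lung fitted its markers: the 12 tested alveolar type 2 cell markers summed to 9058 to 15570 FPKM in the controls and 4037 to 14120 FPKM in the exposed lungs. The libraries also differed as wholes. The FPKM values summed to 383100 ± 28240 (SD, n = 3) in the controls and 335700 ± 15510 (SD, n = 6) in the exposed lungs, and the 10 highest genes held 22.3% ± 3.16 and 14.8% ± 2.51 of the sum. Each of these differences gave p = 0.02381 in an exact two-sided permutation test, the smallest value that the 84 assignments of 9 libraries allow.

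The exposed lungs differed from control in 1245 genes, which is 7.67% of those tested, at an adjusted p below 0.05 (limma on log2(FPKM + 1), Benjamini-Hochberg over all tested genes; every adjusted p here is from that fit unless another is named). Of these, 417 were higher (2.57%) and 828 lower (5.1%). The called rises were larger and in more abundant transcripts: their median log2 difference was 1.09 and their median level 13.9 FPKM, against -0.86 and 3.85 FPKM for the falls. The median over all tested genes was -0.09, and 239 rises and 286 falls reached 2-fold on the log2(FPKM + 1) scale. The smallest adjusted p was 0.000428. Without any test, 3674 genes (22.6%) had 6 exposed and 3 control libraries that did not overlap, 1400 with all exposed lungs higher (8.63%) and 2274 with all lower (14%).

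**Figure D1:**
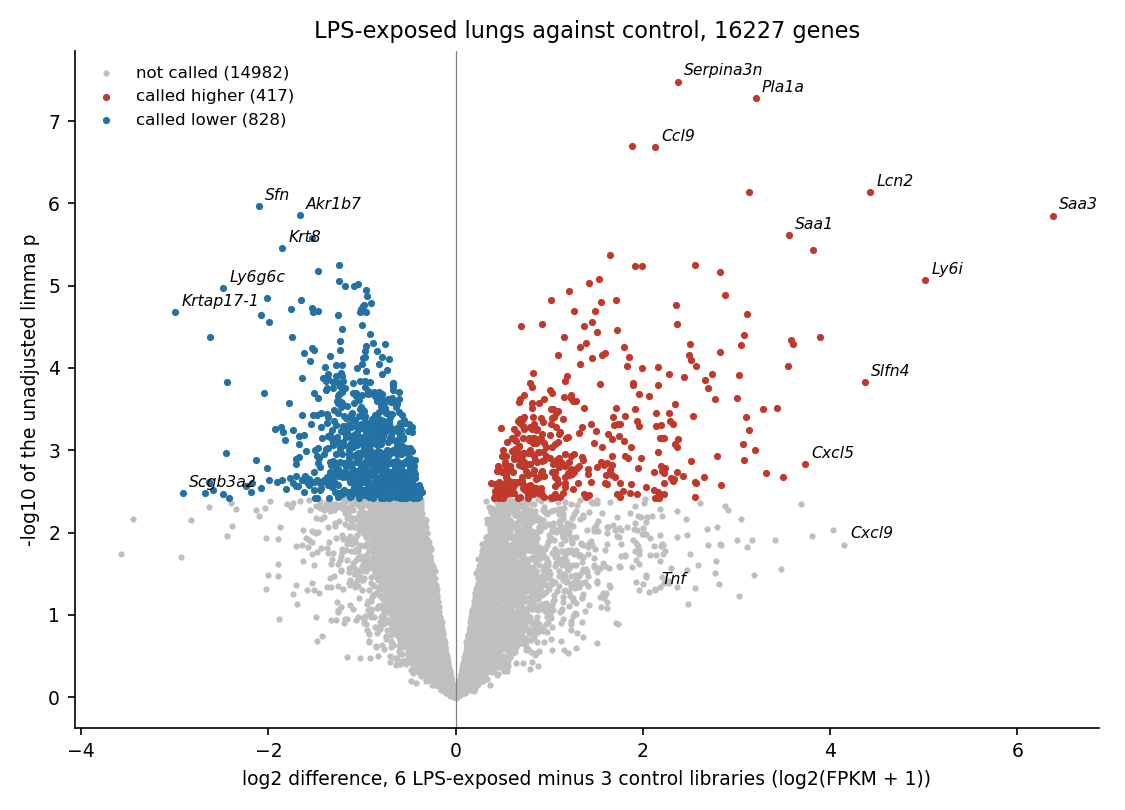
Each point is 1 of the 16227 tested genes, with the log2 difference between the 6 exposed and the 3 control libraries on the x axis and -log10 of the unadjusted limma p on the y axis, red for the 417 called higher and blue for the 828 called lower. Saa3, Lcn2 and Ly6i lie farthest to the right, while Tnf and Cxcl9 have large differences and are not called.

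The share of rises among the calls depended on the scaling of the libraries. It was 33.5% on the values as deposited, 47.4% after median-ratio scaling (471 higher, 522 lower), 39.6% after quantile normalization (478 and 729) and 60.2% when every library was set to the same FPKM total (562 and 371). These scalings moved the median of all genes from -0.089 to between -0.023 and 0.054. Pseudocounts of 0.1 and 0.01 and a filter at a mean of 5 FPKM also raised the share, to 43.5%, 45.6% and 49.1%. None of the 1245 genes changed sign under any alternative run. For the 412 rises and 804 falls without overlap between groups, leaving out a library or changing the pseudocount cannot reverse the sign. Of the 144 called genes that the naming rule picked, 118 were called after median-ratio scaling, 139 after quantile normalization and 119 with equal totals. Those lost under at least 1 scaling include Scgb3a2, Clec3b, Cox8b, Myl4, Cox7a1, Ngfr, Osm, Pim2, Fkbp5, Slc39a14, Slc11a1, Itgb2, Dbp, Per2, Gsta1, Hsp90aa1, Fdft1, Sqle, Me1, mt-Nd4l, mt-Nd3, mt-Nd4, mt-Cytb, Sdc1, Treml1, Foxj1 and Krt5, with adjusted p between 0.0501 and 0.112.

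The number of calls depended strongly on single libraries. It was 248, 38 and 320 without control replicate 1, 2 or 3, and 776, 2606 and 605 without LPS replicate 1, 2 or 3. Without LPS plus PD replicate 1 it was 647, without replicate 2 it was 412, and without replicate 3 it was 1195. All 1245 genes were still called without LPS replicate 2, which was the highest exposed lung in 54.0% of the rises and the lowest in 60.4% of the falls. Of the 144 called genes that the naming rule picked, 47, 19 and 60 were still called without control replicate 1, 2 or 3, and between 82 and 144 without 1 exposed library. Of the 49 lists with a called gene, 26, 41 and 18 had none without control replicate 1, 2 or 3.

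**Figure D2:**
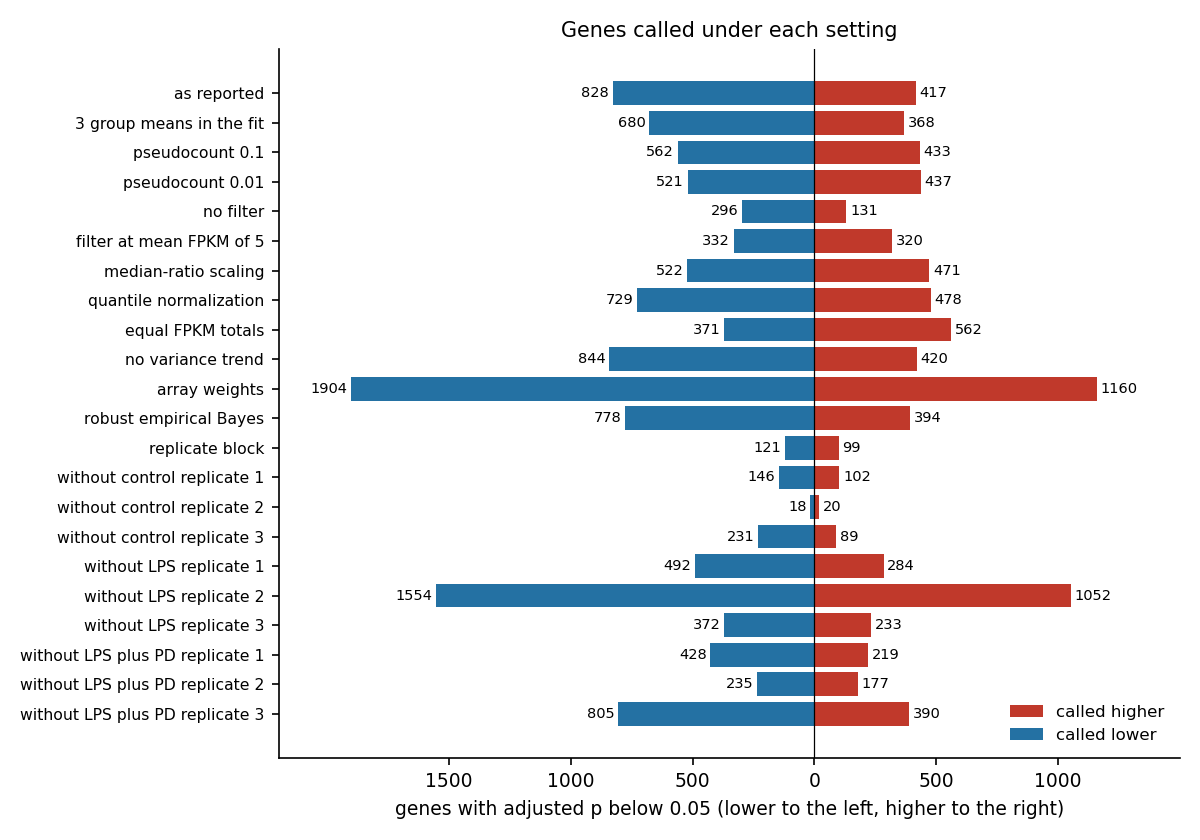
Bars give the number of genes called higher (right) and lower (left) in the exposed lungs, as reported and under each alternative. The bars are shortest without control replicate 2, with 20 higher and 18 lower, and longest with array weights, with 1160 and 1904.

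Few genes were called between the 2 exposed groups. With 3 libraries per group, a lack of calls does not show that the groups were alike. LPS plus PD against LPS gave 0 called genes (0%) by limma over all 16227 genes, and 653 (4.02%) at an unadjusted p below 0.05. Among the 1245 genes of the pooled comparison, 39 (3.13%) had such an unadjusted p. Median-ratio scaling and quantile normalization each gave 1 call between the exposed groups and array weights gave 2, none of them among the genes called in the pooled comparison under the same setting. Taken separately against the shared controls, LPS gave 613 calls (3.78%) and LPS plus PD 128 (0.789%), and these comparisons share their control libraries. The 5 pooled calls with the smallest p between the exposed groups were mt-Nd4l, Cox7a1, the predicted genes Gm28439 and Gm10222, and Gm933, with unadjusted p from 0.00075 to 0.0034. mt-Nd4l, a mitochondrially encoded subunit of complex I, was at 77.4, 182 and 122 FPKM in the controls, 48, 66.8 and 39.6 FPKM with LPS and 16.9, 15.4 and 18.4 FPKM with LPS plus PD.

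A set of 36 genes was called whichever of the 9 libraries was left out, 20 higher and 16 lower. The 20 rises were Saa3, Ly6i, Lcn2, Ifitm6, Saa1, Pla1a, Chil1, Cxcl3, Mmp9, Serpina3n, Cxcl13, Ccl9, Sema7a, Slpi, Serpina3m, F2r, Alox5ap, Col4a1, Cd302 and Lrg1. The 16 falls include Ly6g6c, Sfn, Krt8, Crabp1, Akr1b7, Nrep, Aoc1, Cldn7, Cdsn, Cldn23, Rgn, Cd24a, Htra4, Sstr2 and Frem1. Of these, Cxcl3, Slpi, Lrg1, Cxcl13, Sema7a, F2r, Cd302, Crabp1, Nrep, Cldn7, Cdsn, Cldn23, Cd24a, Htra4, Sstr2 and Frem1 were outside the naming rule and were chosen after their values were seen. The rises hold secreted proteins (Saa3, Lcn2, Chil1, Serpina3n), chemokines (Cxcl3, Cxcl13, Ccl9) and a basement membrane collagen (Col4a1). The falls hold epithelial junction and keratin genes (Cldn7, Cldn23, Cdsn, Krt8). Below, single values follow the order replicate 1, 2 and 3 of each group.

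**Figure D3:**
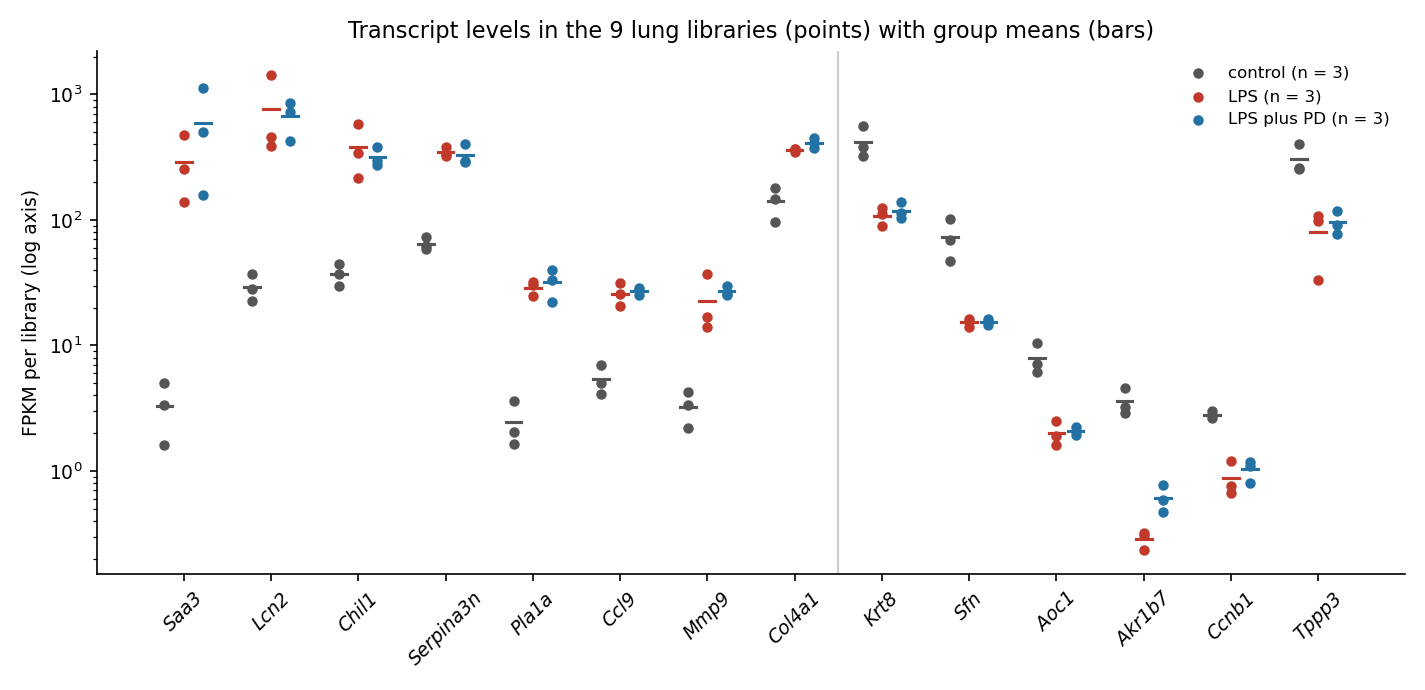
FPKM on a log axis in each of the 9 libraries (points) for 14 genes, with bars at the mean of each group of 3. For every gene shown the 3 control points lie wholly below (Saa3 to Col4a1) or wholly above (Krt8 to Tppp3) the 6 exposed points.

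Acute-phase and secreted host-defence proteins rose. Of 22 tested members 11 were called higher and 0 lower, against 2.57% and 5.1% of all genes, with a median log2 difference of 1.88. Without LPS replicate 2 the count was 14 and without control replicate 2 it was 7. Saa3 (ENSMUSG00000040026, GRCm38 chromosome 7, 46711998 to 46715700, minus strand), a serum amyloid A that is made at sites of inflammation outside the liver, showed the largest difference of all called genes. It was at 1.62, 4.98 and 3.36 FPKM in the controls, 138, 478 and 253 FPKM with LPS and 504, 158 and 1128 FPKM with LPS plus PD, a log2 difference of 6.38 ± 0.62 (SE, adjusted p = 0.00254). The lowest exposed lung was thus above the highest control by more than an order of magnitude, and the exposed lungs themselves ranged widely. Lcn2 (chromosome 2, 32384633 to 32388252, minus strand), the lipocalin that binds bacterial siderophores, was at 22.6, 37.4 and 28.1 FPKM in the controls, 390.4, 1440 and 459 FPKM with LPS and 854, 426 and 725 FPKM with LPS plus PD, with a difference of 4.43 ± 0.40 (SE, adjusted p = 0.00198).

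Serpina3n (chromosome 12, 104406729 to 104414329, plus strand), a serine protease inhibitor of the acute phase, had the smallest p of all genes and varied little among the exposed lungs. It was at 61.6, 73.0 and 58.4 FPKM in the controls, 337, 378 and 325 FPKM with LPS and 405, 297 and 288 FPKM with LPS plus PD, a log2 difference of 2.37 ± 0.15 (SE, adjusted p = 0.000428). Pla1a (chromosome 16, 38396119 to 38433145, minus strand), a phospholipase that acts on phosphatidylserine, shared that adjusted p, at 1.66, 2.03 and 3.64 FPKM in the controls, 30.2, 31.8 and 24.9 FPKM with LPS and 40.1, 22.0 and 33.3 FPKM with LPS plus PD. In both genes the LPS lungs and the LPS plus PD lungs overlapped. Chil1 (chromosome 1, 134182176 to 134190181, plus strand), the secreted chitinase-like protein of macrophages and epithelium, was at 29.9, 44.8 and 37.3 FPKM in the controls, 215, 586 and 341 FPKM with LPS and 297, 275 and 381 FPKM with LPS plus PD, with a difference of 3.14 ± 0.28 (SE, adjusted p = 0.00198). Saa1 rose from 0.072 to 0.210 FPKM in the controls to 8.12 to 33.7 FPKM in the exposed lungs, and Serpina3m from 0.622 to 1.07 to 4.42 to 7.52 FPKM. Slpi, an inhibitor of neutrophil elastase, rose by 1.91 ± 0.22, and Lrg1, a leucine-rich glycoprotein of the acute phase and of neutrophil granules, by 1.21 ± 0.15. Saa1, Serpina3m, Serpina3n and Stfa2l1 belong to families with close copies, and the sources used here do not say how reads shared by several copies were divided, so the split within these families is uncertain.

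Neutrophil markers were the list with the highest share of calls: 15 of 18 rose and 0 fell, with a median of 2.68. Of the 18, 17 had all 6 exposed lungs above all controls, against 8.63% of all genes. Their summed level was 175 to 450 FPKM in the controls and 1473 to 5838 FPKM in the exposed lungs. In bulk tissue a change in the number of cells of a type and a change in RNA per cell cannot be told apart. S100a8, which with S100a9 forms the calcium-binding calprotectin of neutrophils, was at 115, 23.6 and 59.6 FPKM in the controls, 721, 1652 and 411 FPKM with LPS and 479.9, 962 and 1400 FPKM with LPS plus PD, a difference of 3.89 ± 0.56 (SE, adjusted p = 0.00962). Control replicate 1 was the highest control for S100a8 and for S100a9 (difference 3.55, adjusted p = 0.0141). Mmp8, the neutrophil collagenase, rose by 3.60 ± 0.53 and Mmp9, the gelatinase of neutrophil granules, by 2.56 ± 0.29, from 2.21 to 4.23 to 14.0 to 37.4 FPKM. Cxcr2, the receptor through which neutrophils follow CXC chemokines, rose by 3.05 ± 0.45, and Il1r2, the interleukin 1 decoy receptor, by 3.03 ± 0.49. The count was 2 without control replicate 2 and 17 without LPS replicate 2. Of 4 tested genes of precursor granules only Ngp was called (2.52, adjusted p = 0.0128), and of 3 tested mast cell and basophil genes 0 were called.

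Several chemokines that attract neutrophils rose, as did the receptor Cxcr2. Among 7 tested CXC ligands and receptors 5 were called higher and 0 lower, with a median of 3.05. All 5 had every exposed lung above all controls, against 8.63% of all genes. The 2 members not called had differences below 0. The list's summed level overlapped between groups, at 613 to 697 FPKM in the controls and 546 to 974 FPKM in the exposed lungs. Cxcl3 was at 0.170, 0.146 and 0.248 FPKM in the controls, 8.08, 10.2 and 6.28 FPKM with LPS and 11.7, 2.80 and 9.01 FPKM with LPS plus PD. It was the most even of the ligands, with 9 of 9 leave-one-out fits calling it. Cxcl2 was at 0.144, 0.215 and 0.196 FPKM in the controls, 7.47, 93.7 and 7.30 FPKM with LPS and 9.74, 3.06 and 8.11 FPKM with LPS plus PD, a difference of 3.31 ± 0.79 (SE, adjusted p = 0.0387). Here LPS replicate 2 was far above the other exposed lungs, and without it the difference was 2.71. Cxcl5 ranged from 5.71 to 106 FPKM in the exposed lungs against 0.280 to 2.94 in the controls (3.73, adjusted p = 0.0354), and Cxcl1 rose by 3.20 ± 0.69. Without control replicate 2 the list had 1 call.

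The CC chemokines and their receptors had 4 of 14 members called higher and 0 lower, a median of 2.10, 11 called without LPS replicate 2 and 1 without control replicate 2. Ccl9 (chromosome 11, 83572919 to 83578636, minus strand), a CC chemokine of myeloid cells, was the most even, at 5.01, 4.10 and 7.002 FPKM in the controls, 25.6, 20.6 and 31.4 FPKM with LPS and 27.7, 25.1 and 28.8 FPKM with LPS plus PD, a difference of 2.13 ± 0.17 (SE, adjusted p = 0.000838). Ccl20, which attracts dendritic cells and lymphocytes through CCR6, was at 0.418, 1.25 and 0.367 FPKM in the controls, 12.3, 5.50 and 15.7 FPKM with LPS and 24.6, 5.39 and 9.24 FPKM with LPS plus PD. In Ccl20 LPS replicate 2 was among the lowest exposed lungs. Ccl5 rose by 2.65 ± 0.64 and Ccr1 by 2.14 ± 0.40, both with LPS replicate 2 highest (214 and 42.8 FPKM). Without that library the differences were 2.20 and 1.85. Cxcl13, the B cell attractant, was at 3.82, 6.81 and 3.43 FPKM in the controls, 17.1, 28.9 and 27.1 FPKM with LPS and 33.3, 18.6 and 50.9 FPKM with LPS plus PD.

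Few cytokines passed the threshold. Of 13 tested pro-inflammatory cytokines Il1b, Csf2 and Osm were called higher and 0 lower, with 6 called without LPS replicate 2 and 0 without any 1 control, LPS replicate 1 or LPS replicate 3. Il1b was at 3.86, 1.77 and 4.44 FPKM in the controls, 30, 458 and 27.7 FPKM with LPS and 25.3, 23.3 and 41.9 FPKM with LPS plus PD, a difference of 3.50 ± 0.84 (SE, adjusted p = 0.0401). LPS replicate 2 was far above the other exposed lungs, and the difference without it was 2.84 (adjusted p = 0.000757). Of the 8 interleukin 1 receptors and antagonists only Il1r2 was called, with 5 called without LPS replicate 2 and 0 without control replicate 2.

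The series title names TNF and IL-7 with their receptors. Of the 6 tested genes of this list 1 was called higher and 0 lower, against 2.57% and 5.1% of all genes. That count of 1 was 0 without any 1 control or LPS plus PD replicate 2, and 4 without LPS replicate 2. Tnfrsf1a, the widely expressed TNF receptor, was called higher: it was at 69.1, 57.2 and 62.6 FPKM in the controls, 91.5, 114 and 93.3 FPKM with LPS and 101, 96.3 and 88.0 FPKM with LPS plus PD, a difference of 0.62 ± 0.12 (SE, adjusted p = 0.0253). Tnf was at 0.254, 0.660 and 0.530 FPKM in the controls, 3.18, 83.8 and 4.52 FPKM with LPS and 4.08, 1.52 and 1.81 FPKM with LPS plus PD. All 6 exposed lungs were above the controls, but the spread between them was large and the difference of 2.13 ± 0.95 (SE, adjusted p = 0.168) missed the threshold. Without LPS replicate 2 it was 1.38 (adjusted p = 0.013). Tnfrsf1b, the leukocyte TNF receptor, gave 1.71 ± 0.53 (SE, adjusted p = 0.0725), also without overlap, and without LPS replicate 2 1.31 (adjusted p = 0.00611). Il7 was at 0.767 to 0.933 FPKM in the controls and 0.401 to 0.857 FPKM in the exposed lungs (-0.15, adjusted p = 0.403), and Il7r gave 0.41 (adjusted p = 0.349). Both IL-7 transcripts overlapped between exposed and control lungs.

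Few transcripts of the sensing and signalling machinery passed the threshold. Of 14 endotoxin sensing genes 0 were called higher and 0 lower, although 13 differences were above 0, with a median of 0.44. Without LPS replicate 2, 4 were called. Tlr2, the lipopeptide receptor, gave 1.92 ± 0.67 (SE, adjusted p = 0.0951) and the adaptor Tirap 0.57 ± 0.18 (SE, adjusted p = 0.0737). Relb, a subunit of the non-canonical NF-kB dimer, was the called member among 6 subunits, at 0.89 (adjusted p = 0.0403). Of 12 genes of NF-kB feedback 2 rose: Nfkbia, the inhibitor that holds NF-kB in the cytosol, was at 75.7, 77.9 and 78.8 FPKM in the controls, 137, 277 and 114 FPKM with LPS and 186, 126 and 199.8 FPKM with LPS plus PD (1.08, adjusted p = 0.0407), and the ribonuclease Zc3h12a rose by 1.58 ± 0.36. Although few of these passed, 12 of the 12 feedback differences were above 0, where the median over all genes was -0.09. All exposed lungs were above all controls in 10 of them, against 8.63% of all genes. The calls numbered 9 without LPS replicate 2 but 0 without any 1 control or LPS plus PD replicate 1. Of 13 JAK-STAT genes 2 were called higher and 1 lower, against 2.57% and 5.1% of all genes. Pim1 (1.67) and Stat5b (0.50) were the rises and the kinase gene Pim2 (-0.50) the fall. Without any 1 control 0 of the 13 were called in either direction. Stat5b was called in 1 of the 9 leave-one-out fits.

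Interferon-related genes had large differences, few calls and a wide spread among the exposed lungs. Among 28 interferon-stimulated genes only Irf7, the interferon regulatory factor that amplifies type I interferon, was called. Even so, all 28 differences were above 0, with a median of 1.74 against -0.09 over all genes. Irf7 was at 4.51, 6.81 and 6.35 FPKM in the controls, 21.6, 102 and 26.3 FPKM with LPS and 156, 40.9 and 94.5 FPKM with LPS plus PD, a difference of 3.10 ± 0.59 (SE, adjusted p = 0.0236). The list's mean log2 level above control was 0.88, 3.64 and 0.28 in the LPS lungs and 2.16, 1.71 and 1.78 in the LPS plus PD lungs. Without LPS replicate 2 14 of the 28 were called and the median was 1.34, and without any 1 control 0 were called. The guanylate-binding proteins and immunity-related GTPases, interferon-gamma-induced defence proteins, had 0 of 14 called with a median of 2.70. Their mean log2 level above control was 2.53, 5.29 and 0.45 with LPS and 1.79, 4.50 and 1.44 with LPS plus PD. LPS replicate 2 and LPS plus PD replicate 2 were the high lungs and LPS replicate 3 the low one, so the order here differed from that of the interferon-stimulated list. Irgm2, for example, was at 5.76, 4.14 and 5.21 FPKM in the controls, 39.6, 189 and 9.32 FPKM with LPS and 31.6, 143 and 21.3 FPKM with LPS plus PD (2.91, adjusted p = 0.0565).

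Genes of antigen presentation to CD8 T cells rose. Of 12 genes of MHC class I and the immunoproteasome 7 rose, with a median of 1.64; the count was 10 without LPS replicate 2 and 0 without any 1 control. B2m, the light chain of every class I molecule, was at 547, 437 and 539.8 FPKM in the controls, 1097, 5101 and 1781 FPKM with LPS and 3527, 2262 and 2798 FPKM with LPS plus PD, a difference of 2.28 ± 0.43 (SE, adjusted p = 0.0232). Tap1, which carries peptides into the endoplasmic reticulum, rose by 2.21 ± 0.51 and the immunoproteasome subunit Psmb8 by 1.69 ± 0.33. Among 7 class II genes 0 were called higher and 0 lower, with 6 differences above 0. Cd74, the invariant chain, was at 269.6, 197 and 293 FPKM in the controls, 265, 1130 and 353 FPKM with LPS and 486, 403 and 387 FPKM with LPS plus PD (0.84, adjusted p = 0.181). The CXCR3 ligands, which attract activated T cells and NK cells, spanned the widest range: Cxcl9 was at 0.158, 0.908 and 0.231 FPKM in the controls, 2.32, 525 and 3.96 FPKM with LPS and 80.5, 10.1 and 28.2 FPKM with LPS plus PD and was not called (4.15, adjusted p = 0.0875). Cxcl10 reached 693 FPKM in LPS replicate 2 and 2.72 to 18.3 FPKM in the other exposed lungs (3.03, adjusted p = 0.181). Without LPS replicate 2, 2 of the 4 members of that list were called.

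**Figure D4:**
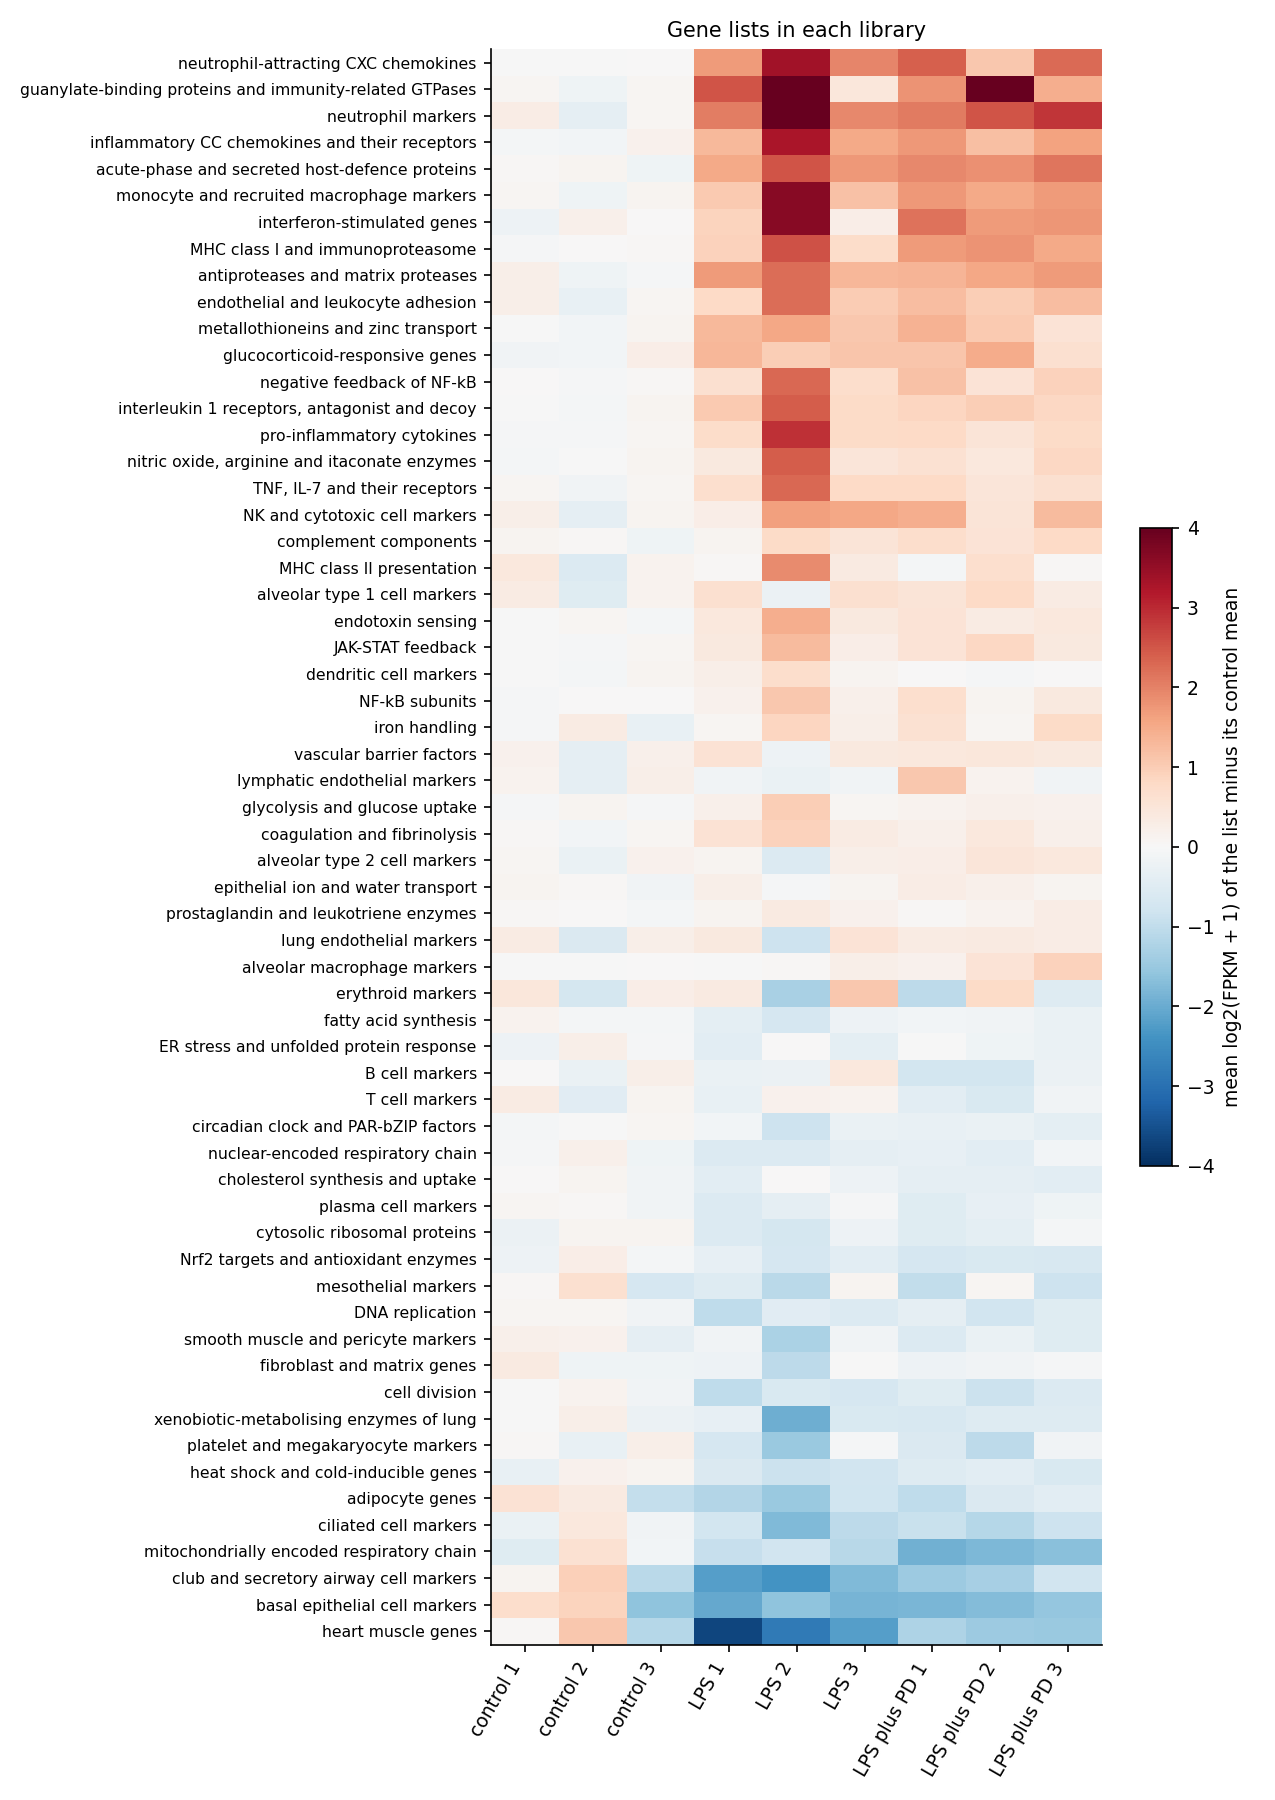
Each cell is the mean log2(FPKM + 1) of a gene list in 1 library minus the mean of the 3 controls, in colour from -4 (blue) to 4 (red), with lists in rows and the 9 libraries in columns. The column of LPS replicate 2 is the deepest red for interferon and chemokine lists, while acute-phase proteins are red in all 6 exposed columns.

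Other leukocyte lists divided. Monocyte and recruited macrophage markers had 3 of 15 called higher, with a median of 1.81, 11 called without LPS replicate 2 and 1 without control replicate 1 or 2. In 13 members all exposed lungs were above all controls, against 8.63% of all genes. Ly6i, a Ly6-family surface protein, was at 0.668, 1.38 and 1.40 FPKM in the controls, 40.9, 232 and 24.6 FPKM with LPS and 110.1, 42.4 and 84.1 FPKM with LPS plus PD, a difference of 5.01 ± 0.60 (SE, adjusted p = 0.00604). Plac8 rose by 2.32 ± 0.57, and Itgam, the integrin chain of myeloid cells, by 2.28 ± 0.37. Outside the list, the Schlafen family gene Slfn4 rose by 4.37 ± 0.73 and Ifitm6, of the interferon-induced transmembrane family, by 3.82 ± 0.41. Alveolar macrophage markers had 2 of 14 called higher and 0 lower, a median of 0.04, 8 differences above 0 and 6 below, and 0 calls without control replicate 1 or 2. Marco, a scavenger receptor, rose from 4.44 to 12.6 to 19.4 to 50.9 FPKM (1.67, adjusted p = 0.0273) and Atp6v0d2, a proton pump subunit, by 1.01 ± 0.21. NK and cytotoxic cell markers had 3 of 11 called higher, the cytotoxic granule genes Gzmb (2.79, adjusted p = 0.033), Gzma (2.22, adjusted p = 0.0423) and Prf1 (1.78, adjusted p = 0.0462). Gzmb was at 0.868, 0.266 and 0.444 FPKM in the controls, 2.13, 17.7 and 9.29 FPKM with LPS and 26.9, 3.98 and 14.2 FPKM with LPS plus PD. LPS replicate 1 and LPS plus PD replicate 2 were the low exposed lungs for it. Over all genes 2.57% were called higher. The NK list had 0 calls without any 1 control or LPS replicate 3, and 5 without LPS replicate 1.

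Lymphocyte lists had no called rise. T cell markers had 0 of 10 called higher and 0 lower, with a median of -0.20, and B cell markers 0 and 0 of 9, with a median of -0.20. Plasma cell markers divided, with 3 of 6 called lower and the other 3 differences above 0. Those called were Derl3 (-1.01, adjusted p = 0.0276) and Mzb1 (-0.78, adjusted p = 0.0272), genes of the secretory pathway, and Sdc1 (-0.80, adjusted p = 0.0366). Sdc1 is also expressed by airway epithelium. The count was 0 without control replicate 1 or 2 and 1 without control replicate 3. Of 9 dendritic cell genes 1 was called, the C-type lectin Cd209a, which fell from 2.05 to 4.61 to 0.033 to 1.67 FPKM (-1.64, adjusted p = 0.0235). The median of that list was 0.43, with 6 differences above 0 and 3 below. Without any 1 control 0 of its members were called. Platelet genes had 1 call of 8, Treml1 (-0.93, adjusted p = 0.0287), and erythroid genes none of 7, with sums of 4040 to 11530 FPKM in the controls and 2172 to 11770 FPKM in the exposed lungs.

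Genes that glucocorticoids induce rose in part. Of 19 tested 8 rose and 0 fell, with a median of 1.08, and the list's mean above control ranged from 0.64 to 1.48 in the 6 lungs. The call count was 0 without control replicate 1 or 2 and 12 without LPS replicate 2. Angptl4, an inhibitor of lipoprotein lipase, was at 4.17, 2.75 and 17.1 FPKM in the controls, 37.2, 30.0 and 40.8 FPKM with LPS and 39.0, 35.4 and 43.1 FPKM with LPS plus PD, a difference of 2.44 ± 0.40 (SE, adjusted p = 0.0167). Control replicate 3 was the high control here. Pdk4, the kinase that turns off pyruvate dehydrogenase, rose by 1.63 ± 0.33, Fkbp5, a co-chaperone of the glucocorticoid receptor, by 1.42 ± 0.37, and the cell cycle inhibitor Cdkn1a by 1.41 ± 0.33.

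Some genes of zinc and iron handling were called, most of them higher. Over all genes 2.57% were called higher and 5.1% lower. Without control replicate 1, 2 or 3 the zinc list had 1, 0 and 1 called rises, and the iron list 2, 1 and 1. The zinc importers Slc39a8 and Slc39a14 were the 2 called genes of 6 tested for metallothioneins and zinc transport. Slc39a8 was at 18.9, 8.81 and 16.8 FPKM in the controls, 49.7, 68.8 and 42.3 FPKM with LPS and 68.6, 51.2 and 36.6 FPKM with LPS plus PD, a difference of 1.79 ± 0.27 (SE, adjusted p = 0.0112). Among 14 iron handling genes 4 rose, Lcn2, Steap4 (1.88, adjusted p = 0.0301), the phagosomal metal exporter Slc11a1 (2.04, adjusted p = 0.0442) and ferroportin, Slc40a1 (0.61, adjusted p = 0.0317, outside the naming rule and chosen after its value was seen), and 1 fell, the hormone hepcidin (Hamp). Hamp was at 16.5, 40.1 and 6.36 FPKM in the controls, 0.292, 3.84 and 1.85 FPKM with LPS and 3.66, 2.67 and 2.41 FPKM with LPS plus PD. The controls were far apart, and the difference was -2.45 ± 0.54 (SE, adjusted p = 0.0321). Hamp was called in 5 of the 9 leave-one-out fits, and Slc39a14 and Slc11a1 in 2 each.

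Clock genes were called in opposite directions within the circuit. Dbp, a clock-driven transcription factor, was at 21.1, 17.4 and 21.6 FPKM in the controls, 6.06, 1.10 and 6.33 FPKM with LPS and 6.01, 7.24 and 10.2 FPKM with LPS plus PD, a difference of -1.71 ± 0.43 (SE, adjusted p = 0.0439). Hlf (-0.96), a related factor, and the repressor Per2 (-0.85) fell, and the activator Arntl rose from 1.23 to 1.45 to 2.19 to 3.38 FPKM (0.66, adjusted p = 0.0246). The remaining 13 of 17 members did not pass. The sources used here do not give the hour of day at which lungs were taken. With equal FPKM totals 1 of the 3 falls was called. Without any 1 control 0 of the 17 members were called in either direction. Called falls numbered 0 without LPS replicate 3 or LPS plus PD replicate 2. Without LPS replicate 2 they numbered 6, and the Dbp difference was -1.38.

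Proteases and their inhibitors rose in the exposed lungs. The antiproteases and matrix proteases had 10 of 15 called higher and 0 lower (median 1.51), 2 without control replicate 2 and 13 without LPS replicate 2. Wfdc17, a whey acidic protein-type inhibitor, ranged from 9.32 to 20.5 FPKM in the controls and 73.7 to 811 FPKM in the exposed lungs. Leukocyte adhesion genes had 4 of 11 called, the integrin chains Itgam (2.28, adjusted p = 0.0159), Itgb2 (1.86, adjusted p = 0.0472) and Itgal (1.76, adjusted p = 0.0423) and the selectin ligand Selplg (1.54, adjusted p = 0.0173), all made by leukocytes. Complement had 4 of 16 called higher, led by the C5a receptor C5ar1 (1.95, adjusted p = 0.0368) and the central component C3 (1.37, adjusted p = 0.022). Of 14 coagulation and fibrinolysis genes 2 rose and 0 fell, among them Plat, the tissue plasminogen activator, which rose by 1.01 ± 0.13. S1pr1, the endothelial receptor for sphingosine 1-phosphate, was the called barrier gene of 14 (1.19, adjusted p = 0.0163).

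Some rises were nearly level across the exposed lungs. Col4a1 (chromosome 8, 11198423 to 11312826, minus strand), the main collagen of basement membranes, was at 180.1, 97.1 and 147 FPKM in the controls, 367, 371 and 348 FPKM with LPS and 449.9, 413 and 372 FPKM with LPS plus PD, a difference of 1.49 ± 0.20 (SE, adjusted p = 0.00659). Its neighbour and partner chain Col4a2 rose by 1.33 ± 0.20. Pdpn, a surface protein of alveolar type 1 and lymphatic cells, rose by 1.01 ± 0.17, and Cd93, an endothelial lectin-like receptor, by 1.01 ± 0.23. F2r, the thrombin receptor PAR1, was at 41.0, 24.9 and 30.0 FPKM in the controls, 127, 91.6 and 115 FPKM with LPS and 94.7, 96.0 and 85.4 FPKM with LPS plus PD, and Sema7a, a membrane-anchored semaphorin, at 24.7, 12.9 and 20.9 FPKM in the controls, 55.1, 85.3 and 99.4 FPKM with LPS and 79, 69.7 and 84.9 FPKM with LPS plus PD. In each of these genes control replicate 2 was the lowest control. Without control replicate 2 Col4a2 (adjusted p = 0.0509), Pdpn (adjusted p = 0.0756) and Cd93 were not called. Cd93 was called in 3 of the 9 leave-one-out fits, and Col4a1, F2r and Sema7a in all 9. Control replicate 2 was also the lowest control for the 16 lung endothelial markers, at -0.57 against 0.33 and 0.23 on the mean log2 scale. The part of this in the rises was not tested. The endothelial list itself had 0 calls, a median of 0.10, and the opposite sign of median under 2 of the alternatives.

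Airway epithelial transcripts were lower in the exposed lungs. Ciliated cell markers had 12 of 17 called lower and 0 higher, with a median of -1.23. In 15 members all exposed lungs were below all controls, against 14% of all genes. The list's mean was -1.77 to -0.75 in the exposed lungs and -0.28 to 0.44 in the controls. Foxj1, the transcription factor of motile cilia, was at 53.2, 120.4 and 62.0 FPKM in the controls, 26.4, 11.9 and 30.7 FPKM with LPS and 39.1, 24.4 and 33.3 FPKM with LPS plus PD, a difference of -1.46 ± 0.36 (SE, adjusted p = 0.0423). Tppp3, a tubulin-binding protein of cilia, fell from 254 to 404 to 33.0 to 119 FPKM, with a difference of -1.86 ± 0.37 (SE, adjusted p = 0.0252). Control replicate 2 was the highest control in both, and without it 0 members were called. With equal FPKM totals 7 of the 17 were called.

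Club and secretory cell markers had the larger median, -1.48, but 1 call of 13. Scgb3a2, a secretoglobin of bronchiolar cells, was at 1033, 2087 and 758 FPKM in the controls, 218, 35.7 and 114 FPKM with LPS and 95.9, 260 and 628 FPKM with LPS plus PD, a difference of -2.91 ± 0.76 (SE, adjusted p = 0.0475), and was called in 2 of the 9 leave-one-out fits. The controls varied widely for this list, from -1.07 in control replicate 3 to 0.95 in control replicate 2. The sources used here do not say how much large airway each piece of lung held, and its part in these falls was not tested.

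Single keratin and junction genes of epithelium were among the called falls, with no list fixed for them. Krt8 (chromosome 15, 101996698 to 102004482, minus strand), the keratin of simple epithelia, was at 322, 556 and 379 FPKM in the controls, 89.1, 111 and 125 FPKM with LPS and 103, 138 and 114 FPKM with LPS plus PD, a difference of -1.85 ± 0.20 (SE, adjusted p = 0.00466). Krt19 fell by 1.37. Sfn (chromosome 4, 133600556 to 133602168, minus strand), the 14-3-3 protein of epithelial cells, was at 47.3, 102 and 68.9 FPKM in the controls, 14.0, 15.4 and 16.4 FPKM with LPS and 15.7, 16.2 and 14.7 FPKM with LPS plus PD. Its 6 exposed values lay within a narrow band while the controls were farther apart, and the difference was -2.10 ± 0.20 (SE, adjusted p = 0.0025). The tight junction proteins Cldn7 and Cldn23 gave differences of -1.47 ± 0.19 and -1.25 ± 0.15, and the adhesion glycoprotein Cdsn -1.47 ± 0.17. Cd24a, a glycosylphosphatidylinositol-anchored sialoglycoprotein, fell from 203 to 326 to 89.2 to 109.9 FPKM. Krtap17-1, a keratin-associated protein, was at 31.3, 25.9 and 26.4 FPKM in the controls, 2.60, 0.431 and 2.76 FPKM with LPS and 2.20, 4.32 and 5.61 FPKM with LPS plus PD, the largest fall of the called genes (-2.998 ± 0.40, SE, adjusted p = 0.00659). Sprr1a, of the cornified envelope, fell by 2.62, and Ly6g6c, a Ly6-family surface protein, by 2.48.

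For squamous and basal genes the controls were not alike. Basal epithelial cell markers had 3 of 7 called lower and a median of -1.53. Krt5, the keratin of basal cells, was at 13.8, 18.3 and 0.554 FPKM in the controls, 0, 0.926 and 0.159 FPKM with LPS and 0.236, 0.138 and 0.308 FPKM with LPS plus PD, so that control replicate 3 lay within the exposed range. Krt17 was at 7.66, 11.0 and 1.38 FPKM in the controls, 0.039, 0.085 and 0.188 FPKM with LPS and 0.260, 0.118 and 0.269 FPKM with LPS plus PD and Krt4 fell from 0.706 to 4 to 0 to 0.109 FPKM, the lowest control again being replicate 3. Without that library 7 of the 7 members were called, and 0 without control replicate 1 or 2. Npy, a neuropeptide, and Ngfr, the low-affinity neurotrophin receptor, also had their lowest control in replicate 3 (Npy 4.62, 5.06 and 0.205 FPKM).

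In mice, heart muscle extends along the pulmonary veins. Heart muscle genes had the lowest median of all lists, -2.35, with 2 of 13 called lower. Their summed level was 326 to 1289 FPKM in the controls and 100 to 301 FPKM in the exposed lungs. Myl4, an atrial myosin light chain, was at 36.2, 69.1 and 16.6 FPKM in the controls, 0.878, 3.10 and 5.63 FPKM with LPS and 12.1, 10.9 and 9.99 FPKM with LPS plus PD (-2.42, adjusted p = 0.0499), and Cox8b and Cox7a1, muscle forms of cytochrome c oxidase subunits, gave -2.49 (adjusted p = 0.0477) and -2.18 (adjusted p = 0.0467). The LPS plus PD lungs lay between the LPS and the control lungs in Cox7a1 and Myl4, with unadjusted p of 0.00085 and 0.012 against LPS and no call after adjustment.

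The alveolar lists had medians above 0 and few calls. Of 12 type 2 and 12 type 1 cell markers 1 and 2 were called higher, against 2.57% of all genes. Differences below 0 numbered 4 and 3. The type 2 list had 0 called rises without any 1 control, LPS replicate 3 or LPS plus PD replicate 1 or 2. The type 1 list had 0 without control replicate 2. Type 2 cell markers had a median of 0.16 with Sftpd, surfactant protein D, called higher at 126, 146 and 116 FPKM in the controls, 228, 160.5 and 274 FPKM with LPS and 284, 248 and 257 FPKM with LPS plus PD (0.88, adjusted p = 0.0319). Type 1 cell markers had a median of 0.52, with Pdpn and Col4a3 called higher (Col4a3 1.10, adjusted p = 0.0353). The 16 fibroblast and matrix genes had a median of -0.61 with 10 differences below 0, and 2 were called higher and 1 lower. The growth factor receptor Pdgfra rose from 10.8 to 22.0 to 38.0 to 60.1 FPKM (1.46, adjusted p = 0.0124) and fibronectin (Fn1) by 0.78 ± 0.17, while the collagen Col14a1 fell by 1.31. Clec3b, the plasminogen-binding tetranectin, was at 136, 125 and 124 FPKM in the controls, 28.9, 2.05 and 28.4 FPKM with LPS and 26.1, 22.4 and 40.0 FPKM with LPS plus PD, a difference of -2.67 ± 0.69 (SE, adjusted p = 0.0475). Without LPS replicate 2, the lowest exposed lung, the Clec3b difference was -2.13. Smooth muscle (12 tested) and lymphatic endothelial genes (5) had no calls. Of 15 ion and water transport genes Slc26a4, the anion exchanger pendrin, rose from 0.115 to 0.676 to 2.45 to 13.6 FPKM (2.14, adjusted p = 0.025). Mesothelial and adipocyte lists each had 1 fall, Krt19 and Cidea (-1.38, adjusted p = 0.0179), and lipoprotein lipase (Lpl) rose by 1.46 ± 0.20. Genes of the thymus and of lymphoid precursors did not reach the filter.

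**Figure D5:**
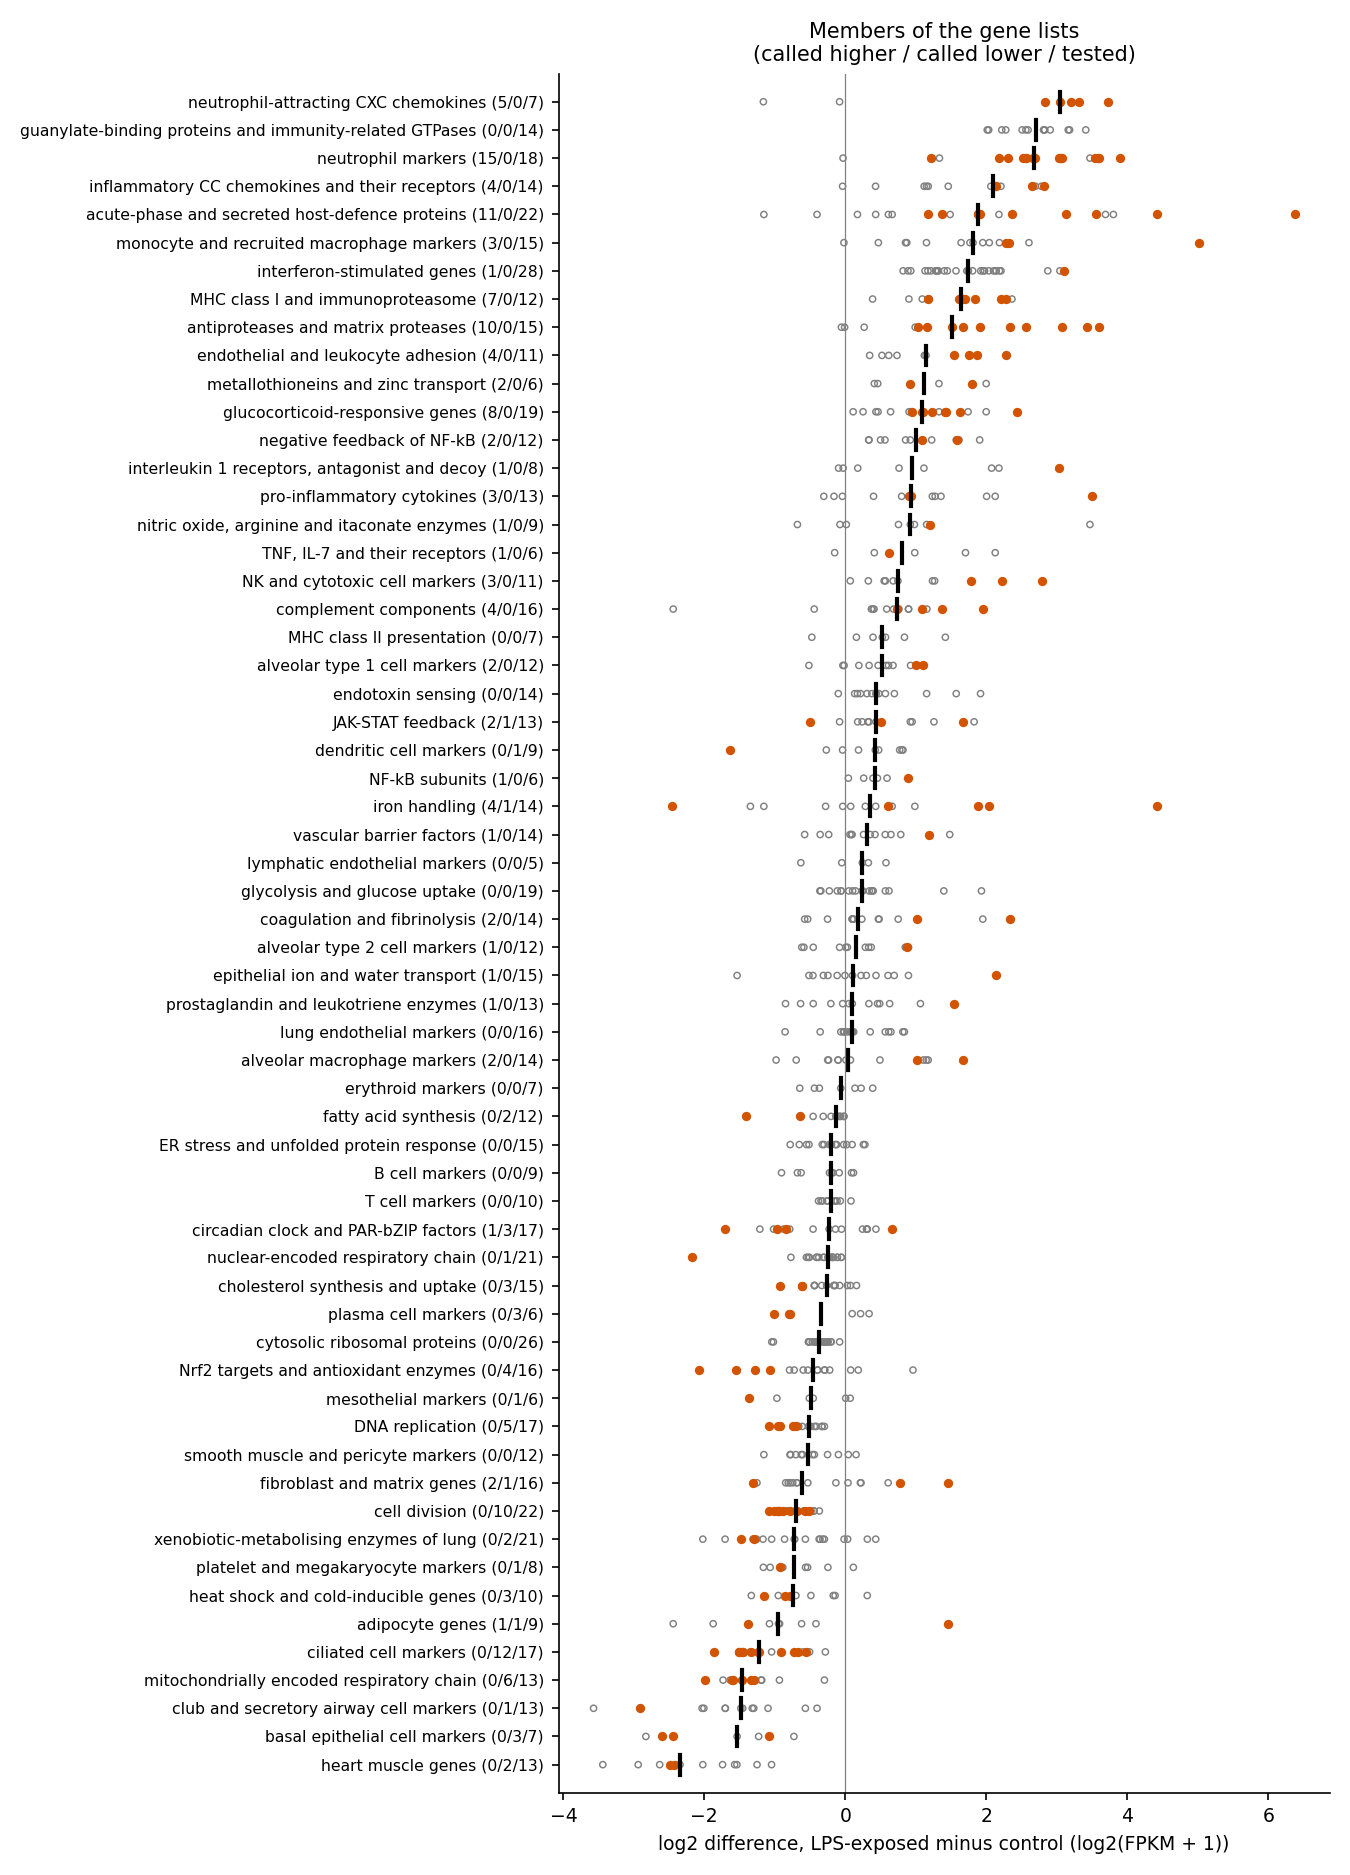
Each point is 1 tested gene of a list at its log2 difference between exposed and control lungs, with filled points for called genes, the list's median as a bar, and the numbers called higher, called lower and tested in brackets. The medians of neutrophil markers, acute-phase proteins and neutrophil-attracting chemokines lie to the right. Those of heart muscle, basal, club and ciliated cell genes lie to the left.

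Mitochondrially encoded transcripts were lower in every exposed lung. They made up 10.6% ± 3.11 of all FPKM in the controls (SD, n = 3) and 4.91% ± 1.28 in the exposed lungs (SD, n = 6), with p = 0.02381 in the exact permutation test. Of 13 such genes of the respiratory chain 6 were called lower (median -1.47). All exposed lungs were below all controls in 12 of them, against 14% of all genes. mt-Nd4, a complex I subunit, was at 2235, 4435 and 2860 FPKM in the controls, 1281, 1410 and 1129 FPKM with LPS and 561, 1255 and 1236 FPKM with LPS plus PD, a difference of -1.47 ± 0.34 (SE, adjusted p = 0.0353). The number called was 0 after median-ratio scaling, 3 after quantile normalization and 2 with equal totals. After these scalings the difference of mt-Nd4 was -1.36 (adjusted p = 0.0556), -1.12 (adjusted p = 0.0479) and -1.28 (adjusted p = 0.0423). The count was 0 without any 1 of the 3 controls or LPS plus PD replicate 2, and 12 without LPS replicate 2. Among 21 nuclear-encoded subunits, only Cox7a1 was called, and among 26 cytosolic ribosomal proteins 0 were called, with a median of -0.37.

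Enzymes of detoxification and lipid synthesis had a few called falls and no called rises in their lists, against 5.1% called lower among all genes. Nrf2 targets had 4 of 16 called lower and a median of -0.46. They were the glutathione transferase Gsta1 (-2.08), the glutathione peroxidase of epithelium Gpx2 (-1.55), the quinone reductase Nqo1 (-1.28) and sulfiredoxin, Srxn1 (-1.07). Xenobiotic enzymes had 2 of 21, Adh7 (-1.47, adjusted p = 0.0198) and Cyp2s1 (-1.30, adjusted p = 0.0222), with 9 without LPS replicate 2 and 0 without control replicate 2. The aldo-keto reductase Akr1b7 (chromosome 6, 34412334 to 34423142, plus strand) was at 2.92, 4.62 and 3.26 FPKM in the controls, 0.234, 0.307 and 0.319 FPKM with LPS and 0.586, 0.475 and 0.773 FPKM with LPS plus PD, a difference of -1.66 ± 0.16 (SE, adjusted p = 0.00254). Aoc1, the diamine oxidase that breaks down histamine, was at 6.18, 10.5 and 7.15 FPKM in the controls, 1.62, 1.92 and 2.52 FPKM with LPS and 1.93, 2.07 and 2.24 FPKM with LPS plus PD, and Rgn, a calcium-binding lactonase, fell by 1.25. Several of these enzymes are made in airway epithelium, whose markers fell in the same lungs, and the part of that in these falls was not tested.

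Cholesterol synthesis had 3 falls among 15 genes, of which Cyp51, lanosterol demethylase, was at 16.9, 20.1 and 17.4 FPKM in the controls, 8.62, 12.6 and 8.37 FPKM with LPS and 7.08, 10.1 and 8.11 FPKM with LPS plus PD (-0.93, adjusted p = 0.0187), with Fdft1 (-0.61, adjusted p = 0.0302) and Sqle (-0.61, adjusted p = 0.04) beside it. Fatty acid synthesis had 2 of 12, the lipogenic regulator Thrsp (-1.41, adjusted p = 0.0168) and Me1 (-0.64, adjusted p = 0.0377). Chaperones of the heat shock list had 3 falls of 10, Hsph1 (-1.16, adjusted p = 0.0214), Hsp90aa1 (-0.85, adjusted p = 0.0356) and Hspd1 (-0.78, adjusted p = 0.019), whereas the 15 genes of the unfolded protein response and the 19 of glycolysis had no call. Arg2, the mitochondrial arginase, was the called gene of 9 for nitric oxide, arginine and itaconate (1.21, adjusted p = 0.0398). Alox5ap, which presents arachidonate to 5-lipoxygenase, was that of 13 for prostaglandins and leukotrienes, at 9.24, 8.70 and 9.47 FPKM in the controls, 21.6, 37.1 and 29.1 FPKM with LPS and 24.7, 24.3 and 37.1 FPKM with LPS plus PD (1.54 ± 0.18, SE, adjusted p = 0.00604).

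Cell division genes were lower in the exposed lungs. Of 22 tested 10 fell and 0 rose, with a median of -0.70. All exposed lungs were below all controls in 18 of them, against 14% of all genes. DNA replication genes had 5 of 17 and a median of -0.52. Ccnb1, cyclin B1, which drives entry into mitosis, was at 2.63, 3.02 and 2.79 FPKM in the controls, 0.668, 1.20 and 0.760 FPKM with LPS and 1.19, 0.808 and 1.09 FPKM with LPS plus PD, a difference of -0.97 ± 0.13 (SE, adjusted p = 0.00659). Cdk1, its kinase, was at 4.63, 5.52 and 3.43 FPKM in the controls, 1.25, 1.21 and 1.82 FPKM with LPS and 2.16, 1.57 and 2.52 FPKM with LPS plus PD, and Ube2c, the ubiquitin-conjugating enzyme of the anaphase-promoting complex, at 6.46, 9.45 and 6.02 FPKM in the controls, 1.61, 2.07 and 3.56 FPKM with LPS and 3.37, 3.25 and 3.87 FPKM with LPS plus PD. In each the highest exposed lung was below the lowest control. Tyms, thymidylate synthase, fell by 0.74. With 1 library left out the count of the 22 ran from 0 without control replicate 2 to 18 without LPS replicate 2, and 5 were called with equal FPKM totals, where 1 DNA replication gene was.

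Promoters of dividing-cell genes commonly hold a CCAAT box, which NF-Y binds, and a cell cycle homology region (CHR), which the MuvB complexes bind. The 5 largest called falls of the cell division list with a single RefSeq promoter window are shown because these genes fell together (Plk1 is outside the naming rule). Each window runs from 250 bases before to 50 bases after the annotated start (RefSeq, GRCm38.p6), 5′ to 3′ on the gene's strand, with capitals at every CCAAT and TTTGAA on either strand (ATTGG and TTCAAA are their reverse complements).
Ube2c (chr2:164769679-164769978, plus strand): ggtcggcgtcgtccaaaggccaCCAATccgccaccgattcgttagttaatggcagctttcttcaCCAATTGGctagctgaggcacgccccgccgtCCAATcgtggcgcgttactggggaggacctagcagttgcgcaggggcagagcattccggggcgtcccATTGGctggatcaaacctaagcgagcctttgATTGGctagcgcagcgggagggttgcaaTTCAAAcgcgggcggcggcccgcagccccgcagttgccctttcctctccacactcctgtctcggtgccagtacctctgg
Cdk1 (chr10:69352863-69353162, minus strand): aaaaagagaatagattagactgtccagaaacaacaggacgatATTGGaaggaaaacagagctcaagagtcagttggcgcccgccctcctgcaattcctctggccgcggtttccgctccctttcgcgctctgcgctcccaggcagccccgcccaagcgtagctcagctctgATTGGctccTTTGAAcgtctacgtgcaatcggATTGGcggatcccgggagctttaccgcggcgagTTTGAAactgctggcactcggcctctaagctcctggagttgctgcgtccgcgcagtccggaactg
Ccnb1 (chr13:100786437-100786736, minus strand): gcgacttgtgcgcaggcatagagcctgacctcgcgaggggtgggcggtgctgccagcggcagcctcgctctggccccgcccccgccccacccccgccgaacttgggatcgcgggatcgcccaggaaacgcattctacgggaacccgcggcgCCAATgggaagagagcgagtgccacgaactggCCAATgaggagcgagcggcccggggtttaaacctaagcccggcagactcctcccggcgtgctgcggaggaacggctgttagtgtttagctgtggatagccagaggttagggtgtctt
Cdca3 (chr6:124829926-124830225, plus strand): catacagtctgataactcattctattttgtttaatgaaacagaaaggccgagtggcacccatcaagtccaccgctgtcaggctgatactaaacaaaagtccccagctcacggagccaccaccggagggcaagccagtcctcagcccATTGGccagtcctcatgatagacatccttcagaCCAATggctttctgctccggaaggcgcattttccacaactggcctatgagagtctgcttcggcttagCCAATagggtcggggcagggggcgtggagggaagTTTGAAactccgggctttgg
Plk1 (chr7:122159185-122159484, plus strand): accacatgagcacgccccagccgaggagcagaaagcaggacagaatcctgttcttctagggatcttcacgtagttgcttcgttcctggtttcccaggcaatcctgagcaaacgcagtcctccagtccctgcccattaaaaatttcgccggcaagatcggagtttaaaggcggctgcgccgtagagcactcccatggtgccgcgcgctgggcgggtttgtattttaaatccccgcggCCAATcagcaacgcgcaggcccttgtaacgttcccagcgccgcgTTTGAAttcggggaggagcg

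The windows hold 6, 3, 2, 3 and 1 CCAAT motifs and 1, 2, 0, 1 and 1 TTTGAA motifs, in the order shown. Only these exact letters were searched, so a count of 0 does not show that a window lacks a CHR. Over the whole list CCAAT was in 16 of 18 windows (88.9%) and TTTGAA in 14 of 18 (77.8%), whether or not the gene was called, against 36.9% and 12.4% of the 14122 windows of 11122 tested genes. Windows of all genes called lower held them in 40.2% and 14.5%, and windows of all genes called higher in 33.7% and 16.8%. For the rises, an NF-kB-like motif (GGGA and TCC with any 3 bases between, both strands) was in 6.79% of 368 windows of genes called higher and in 5.36% of all windows, and a STAT-like motif (TTCNNNGAA) in 7.88% and 6.98%. The acute-phase list held the NF-kB-like motif in 1 and the STAT-like motif in 5 of 22 windows (4.55% and 22.7%). These are matches of letters and not measured binding.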

How the data were processed

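The deposited table holds FPKM per gene and library, as the authors made it. HISAT2, StringTie, bcl2fastq, FastQC and the build GRCm38 were used, per the submitters' processing notes. Versions, strandedness and the handling of multi-mapped reads were not given in the sources used here. FPKM is no count, so no count model was run. Depth was found from the steps of single-exon genes: at it 99.0% to 99.4% of their values below 100 reads were whole to within 0.05.

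Genes averaging 0.5 FPKM or more were fitted as log2(FPKM + 1), which shrinks differences of low genes, in limma 3.58.1 (R 4.3.3) with 1 mean for the 6 exposed and 1 for the 3 control libraries and a variance trend. P-values were adjusted by Benjamini-Hochberg over 16227 genes, with a threshold of 0.05. Differences are exposed minus control. The fit was tested on simulated data. Fits with each exposed group apart share the controls. Single values were compared by exact two-sided permutation (scipy 1.17.1). The members, lists (64 with 787 symbols, 749 entries tested) and the naming rule were chosen with earlier results of these data known, so a list's direction is a description.

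The rule named the 10 largest rises and falls without overlap, the 8 with the widest gap between groups, the 5 with the smallest p, the 5 most even among the exposed lungs, up to 4 called members per list (or 2 by p), the TNF and IL-7 genes, and 5 by the p between exposed groups. Predicted genes, pseudogenes and receptor segments were left out of the first parts. Of 32114 identifiers 99.7% were in GENCODE M21, 95.7% at the same coordinates. Alternatives were other pseudocounts, filters, scalings, variance options, 3 group means, a replicate block and leaving out each library. Some called genes are not reported here. Tables were made with pandas 2.3.3 (Python 3.11.15) and figures with matplotlib 3.10.9.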

Additional observations from a re-analysis of the deposited data

Results flagged for a closer look

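In each of 45 named genes and 63 lists the exposed lung that stood farthest out was compared with the spread of the 6, by the gap to its nearest neighbour divided by the whole range (Dixon's test). Chance alone would mark about 1 in 20. It marked 25, of which 23 were LPS replicate 2, the library whose correlation with the others was lowest. The causes were not tested.

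LPS replicate 2 was the highest exposed lung for Tnf (ratio 0.777, at 83.8 FPKM), Tnfrsf1b (0.709) and Upk3bl (0.762), and the lowest for Clec3b (0.784, at 2.05 FPKM) and Tppp3 (0.66). Il7 was marked for LPS replicate 3, the lowest at 0.401 FPKM (0.627).

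Among list means LPS replicate 2 was highest for inflammatory CC chemokines and their receptors (0.742), CXCR3 chemokines (0.671), pro-inflammatory cytokines (0.886), interleukin 1 receptors (0.826) and endotoxin sensing (0.796). It was also highest for negative feedback of NF-kB (0.643), glycolysis (0.842), nitric oxide and arginine enzymes (0.791), leukocyte adhesion (0.7) and MHC class II (0.629). The same held for TNF and IL-7 genes (0.832), monocyte markers (0.74) and dendritic cell markers (0.631). That library was lowest for vascular barrier factors (0.732), xenobiotic enzymes (0.804), alveolar type 2 cells (0.628), lung endothelium (0.828) and fibroblast genes (0.808). LPS plus PD replicate 1 was highest for lymphatic endothelial markers (0.711).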

How the results depend on the processing

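No called gene changed direction in any alternative. Most had no overlap between groups, so a left-out library or another pseudocount could not change it. As reported, 1245 genes were called (417 higher, 828 lower). The total was 427 with no filter (131 higher, 296 lower), 652 with a filter at a mean FPKM of 5 (332 lower), 3064 with array weights (1160 higher, 1904 lower) and 220 with the replicate block (99 higher, 121 lower). Falls numbered 521 with a pseudocount of 0.01, 522 after median-ratio scaling and 371 with equal FPKM totals. With 1 library left out the total ran from 38 to 2606, the rises from 20 to 1052 and the falls from 18 to 1554. The fit without a filter tests 31334 genes, the one at 5 FPKM 8653. The cause of the other shifts was not tested.

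Of the 144 called genes that were named, 64 were called with no filter, 118 after median-ratio scaling, 119 with equal totals, 58 with the replicate block and 126 or more in the fits with other pseudocounts, group means, quantile normalization, no trend, robust variances or array weights. With the filter at 5 FPKM 110 of them were called and 3 of those tested were not. Replicate numbers did not pair the libraries: correlations between same-numbered libraries ran from -0.183 to 0.192 and 1 of 9 exceeded 0.1. The genes called in the pooled comparison and between the exposed groups numbered 0 in every alternative. The sum of FPKM, the mitochondrial share and the share of the 10 highest genes kept their sign with 1 library left out (-56680 to -31170 with 1 control out, -7.17 to -4.07 and -8.69 to -5.72 percentage points), but with 2 controls the smallest p allowed is 0.0714. Values near 0 FPKM rest on few reads, and the pseudocount understates their change.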

Other observations

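Protein-coding genes made up 95.0% of the called rises and 91.4% of the called falls, against 83.8% of the tested genes. Long intergenic and antisense transcripts numbered 12 among the rises and 29 among the falls. Among the called rises the median SD of log2(FPKM + 1) was 0.36 over the 6 exposed lungs and 0.24 over the 3 controls. Among the falls it was 0.25 and 0.27.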
